A study of Homo sapiens with 12 samples.

Results

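The comparison is between cells given 4-hydroxytamoxifen (4OHT) together with 3-deazaadenosine (3DA) and cells given 4OHT alone. It takes 8 of the 12 RNA-seq libraries of the series, 4 per group, and all genes with enough reads, 13248 of 62069 gene identifiers. The cells were IMR90 ER:RAS, a line of human lung fibroblasts in which an introduced oncogenic RAS protein is joined to an oestrogen receptor domain and becomes active when 4OHT binds. Every library of all 3 groups came from these ER:RAS cells at passage 15 and day 6. Libraries 29 to 32 received 4OHT at 100 nM and 3DA, libraries 21 to 24 received 4OHT at 100 nM, which the series names senescent, and libraries 17 to 20 received the solvent DMSO and no 4OHT, and are named non-senescent. For 3DA, neither dose nor day of addition is given in the sources used here. Cells given 3DA without 4OHT, and cells without ER:RAS, were not analysed here, so an effect of 3DA on cells in which RAS is off cannot be told apart from one that needs active RAS.

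3DA is an analogue of adenosine that inhibits S-adenosylhomocysteine hydrolase, encoded by AHCY. This enzyme clears S-adenosylhomocysteine, the product that every methyltransferase leaves behind when it takes a methyl group from S-adenosylmethionine (SAM), and that product in turn holds methyltransferases back when it builds up. Active RAS in fibroblasts is known to lead to a lasting arrest called oncogene-induced senescence, in which cell division genes are shut off by CDK inhibitors such as p21 and p16 while secreted inflammatory factors, the senescence-associated secretory phenotype (SASP), are switched on with the transcription factor NF-kB.

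Sequencing was deeper in the 4OHT+3DA libraries (14306171 to 19291493 counted reads) than in the 4OHT libraries (10973618 to 15596086) and the DMSO libraries (9451160 to 13101016). All 18 pairs of libraries within a group differed by more than counting noise, while their Spearman correlations across genes were 0.984 or more. Chi-square values per degree of freedom were 10.2 to 41.5 in 4OHT+3DA, 3.8 to 6.59 in 4OHT and 3.07 to 8.07 in DMSO. Each gene's test used a single estimate of spread for all groups and did not allow it to differ between groups. Whether replicates were separate cultures is not in the labels, so the p-values cover the spread between these samples alone, which may be technical. Levels are given as CPM, counts scaled to a common library size, and differences as log2 fold changes from edgeR with their standard error (SE). A gene was called when its Benjamini-Hochberg adjusted p from edgeR's quasi-likelihood test was under 0.05. AHCY (ENSG00000101444), the target of 3DA, stood at 161 to 182 CPM with 4OHT and at 184, 159, 144 and 186 CPM in 4OHT+3DA libraries 29, 30, 31 and 32. The groups overlapped, and its log2 fold change was −0.05 (SE 0.08, edgeR adjusted p = 0.68).

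3DA moved genes both up and down, and 1835 of the 3558 called genes ran against the direction in which 4OHT had moved them. Of the 13248 genes tested, 3558 were called (26.9%), 1909 higher (14.4%) and 1649 lower (12.4%). This balance depends on the processing, since scaling by library totals instead of TMM gave 2535 higher and 1207 lower genes, and a test of unfiltered genes gave 2207 and 1371. In 3311 genes (25.0%) no 4OHT+3DA library overlapped any 4OHT library. Among the called genes 1399 differed by at least 1.5-fold. The called genes were split by what 4OHT had done against DMSO, where 6889 genes (52.0%) were called. Between 4OHT+3DA and DMSO 6825 genes (51.5%) were called. Moved-back genes were called in both comparisons with opposite signs, and moved-on genes were called in both with the same sign. A 3DA-only gene was called against 4OHT, was not called between 4OHT and DMSO, and had a 95% interval for that second difference that stayed within 1.5-fold either way. Genes whose interval reached further were left as not resolved.

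There were 1835 moved-back genes (13.9% of those tested), 916 3DA-only genes (6.91%), 519 moved-on genes (3.92%) and 288 not resolved (2.17%). The moved-back genes were 933 higher (7.04%) and 902 lower (6.81%), and the 3DA-only genes 581 higher (4.39%) and 335 lower (2.53%). Of the moved-on genes 249 were higher (1.88%) and 270 lower (2.04%), and of the genes not resolved 146 were higher (1.1%) and 142 lower (1.07%). These classes rest on comparisons that share the 4OHT libraries. A chance deviation of those libraries enters both differences with opposite signs, and no correlation between the comparisons is given for that reason. At the limits of the rules, ZNF302 was just called (adjusted p = 0.04996, edgeR) and BSDC1 was not (0.05003), while DHODH had an interval that reached 1.499-fold and counted as 3DA-only and TMX1 one that reached 1.501-fold and did not.

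**Figure D1:**
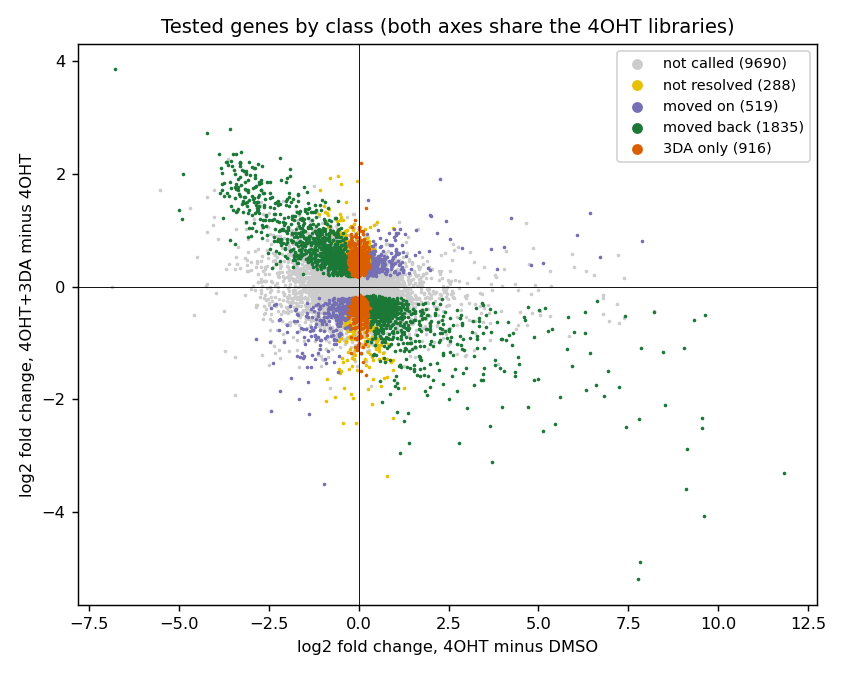
Each point is 1 of the 13248 tested genes, placed by its log2 fold change for 4OHT minus DMSO (horizontal axis) and for 4OHT+3DA minus 4OHT (vertical axis), and coloured by class with the number of genes in the legend. The 1835 moved-back genes lie in the upper left and lower right, and the 916 3DA-only genes lie around 0 on the horizontal axis. Both axes use the same 4OHT libraries.

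Promoter letters of 6 genes are shown because they belong to the gene groups described next, whose promoters are known for the motifs in capitals. Each stretch is the 250 bases before the RefSeq start site of GRCh38.p14, a build other than that of the counts, read 5′ to 3′ on the gene's own strand. CDK1, the kinase that drives entry into mitosis, lies at chr10:60778081-60778330 (plus strand), and DLGAP5, a spindle protein, at chr14:55191586-55191835 (minus strand). In both, capitals mark the CHR element TTTGAA and the CCAAT box, elements known from promoters of G2/M genes, and TTCAAA in DLGAP5 is TTTGAA on the opposite strand. MCM6, a subunit of the replicative helicase, lies at chr2:135876444-135876693 (minus strand), with TTTNGCGC in capitals, the letters bound by E2F factors, whose matches on the opposite strands overlap here.
CDK1: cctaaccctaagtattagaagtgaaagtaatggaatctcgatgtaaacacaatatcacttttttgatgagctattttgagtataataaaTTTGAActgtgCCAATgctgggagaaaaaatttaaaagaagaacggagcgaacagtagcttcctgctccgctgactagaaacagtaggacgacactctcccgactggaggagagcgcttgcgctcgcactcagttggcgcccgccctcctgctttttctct
DLGAP5: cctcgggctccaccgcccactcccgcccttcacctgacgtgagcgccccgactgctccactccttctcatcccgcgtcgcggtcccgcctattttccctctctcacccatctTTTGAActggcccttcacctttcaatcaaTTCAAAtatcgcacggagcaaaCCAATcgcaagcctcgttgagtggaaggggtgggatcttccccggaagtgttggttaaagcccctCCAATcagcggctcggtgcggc
MCM6: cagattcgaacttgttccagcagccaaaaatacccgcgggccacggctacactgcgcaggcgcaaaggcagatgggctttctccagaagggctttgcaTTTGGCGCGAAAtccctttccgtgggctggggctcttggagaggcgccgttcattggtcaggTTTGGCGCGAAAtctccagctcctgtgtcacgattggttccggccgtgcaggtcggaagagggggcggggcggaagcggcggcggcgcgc

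CCL20, a chemokine of the SASP, lies at chr2:227813592-227813841 (plus strand), and NFKBIA, the NF-kB inhibitor that NF-kB itself switches on, at chr14:35404750-35404999 (minus strand). Capitals mark a form of the NF-kB motif, GGG, then 2 bases of any kind, then TTTCC, which in both genes is matched on the opposite strand, so that the printed letters are its reverse complement. HSP90B1, a chaperone of the endoplasmic reticulum (ER), lies at chr12:103930160-103930409 (plus strand). Capitals there mark the ER stress element, a CCAAT box, then 9 bases of any kind, then CCACG, matched once on each strand.
CCL20: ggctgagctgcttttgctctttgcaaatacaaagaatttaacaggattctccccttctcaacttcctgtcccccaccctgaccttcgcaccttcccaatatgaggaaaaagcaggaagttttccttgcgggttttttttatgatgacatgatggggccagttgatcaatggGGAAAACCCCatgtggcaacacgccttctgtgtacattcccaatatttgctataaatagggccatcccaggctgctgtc
NFKBIA: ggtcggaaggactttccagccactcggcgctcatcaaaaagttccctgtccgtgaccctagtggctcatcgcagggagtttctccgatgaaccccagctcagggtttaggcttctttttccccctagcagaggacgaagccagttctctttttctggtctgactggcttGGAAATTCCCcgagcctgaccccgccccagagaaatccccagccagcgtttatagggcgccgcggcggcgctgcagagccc
HSP90B1: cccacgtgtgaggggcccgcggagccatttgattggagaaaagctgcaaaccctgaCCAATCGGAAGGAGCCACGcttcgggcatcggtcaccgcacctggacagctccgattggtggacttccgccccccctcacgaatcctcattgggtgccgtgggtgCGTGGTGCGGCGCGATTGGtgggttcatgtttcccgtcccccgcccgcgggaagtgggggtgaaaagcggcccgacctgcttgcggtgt

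All 5 motifs were searched on both strands of a 300-base window, from 250 bases before to 50 after the start, in the 10198 tested genes that had a promoter in the table. TTTGAA was found in 9.85% of these promoters, in 20.2% of 762 moved-back genes that were higher and in 25 of 34 genes of mitosis. The CCAAT box stood in 36.8% of all, in 47.6% of the moved-back genes that were higher, in 27 of 34 mitosis genes and in 18 of 19 genes for ER chaperones. It was also in 19 of 34 genes of DNA replication and 10 of 19 SASP genes, but in none of 15 NF-kB feedback targets. TTTNGCGC was found in 2.94% of all and in 14 of 34 genes of DNA replication. The NF-kB motif was found in 2.17% of all, in 7 of 19 genes of SASP cytokines and chemokines and in 6 of 15 NF-kB feedback targets. It stood in 3.55% of the moved-back genes that were lower and in 3 of 34 genes of DNA replication. Among moved-on genes it stood in 4.23% of those that were higher and 4.37% of those that were lower. The ER stress element stood in 0.137% of all and in 6 of 19 ER chaperone genes, one of them HSP90B1. In the 471 promoters of 3DA-only genes that were higher, the shares were 11.5% for TTTGAA, 36.3% for CCAAT, 3.4% for TTTNGCGC, 2.97% for the NF-kB motif and 0.425% for the ER stress element. A match describes letters in this window and shows no binding.

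Genes of cell division were the clearest block among the moved-back genes that were higher. Of 40 tested genes of mitosis, which build the spindle, the kinetochore and the cyclin B machinery, 39 rose with 3DA and none fell, with a median log2 fold change of 1.60 against 0.01 over all tested genes. The 4OHT change of the same list had a median of −3.11, and the median left between 4OHT+3DA and DMSO was −1.40. All 39 were moved-back genes, and all 39 were called without libraries 30 and 31. INCENP, part of the chromosomal passenger complex, was the other member, at 0.36. It was picked with its value known. Over all tested genes 14.4% were called higher and 12.4% lower, the shares to set beside the counts of this and each later list.

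CDK1 (ENSG00000170312), whose promoter is shown above, stood at 79.5 to 96.7 CPM with DMSO and at 5.13 to 10.5 CPM with 4OHT. With 4OHT+3DA it was at 35.0, 40, 60.6 and 31.5 CPM in libraries 29 to 32, above every 4OHT library and below every DMSO library (log2 fold change 2.21, SE 0.20, edgeR adjusted p = 1.3e-07). DLGAP5 (ENSG00000126787) went from 4.07 to 5.14 CPM with 4OHT to 17.4, 24.4, 27.0 and 18.7 CPM (2.21, SE 0.15), against 55.3 to 65.0 CPM with DMSO. The kinetochore gene NDC80 and the checkpoint kinase gene TTK had log2 fold changes of 2.11 and 2.13. All of these levels lay between those of 4OHT and DMSO.

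The 8 largest rises among moved-back genes, by the rule for named genes, were DEPDC1, KNL1, MND1, CLDN11, CCNE2, DDIAS, PBK and SGO1. KNL1, a scaffold of the kinetochore, stood at 8.35, 14.2, 17.6 and 8.84 CPM with 4OHT+3DA, against 1.84 to 2.87 CPM with 4OHT and 20.4 to 25.4 CPM with DMSO (log2 fold change 2.39, SE 0.23). CCNE2, a cyclin of S phase entry, was at 3.24, 5.16, 5.30 and 2.63 CPM, against 0.484 to 1.20 and 7.41 to 9.61 CPM (2.35, SE 0.30). MND1, a meiotic recombination gene, had 2.36 (SE 0.38), and 2.99 without 4OHT library 23. Its level with 4OHT was low, at 0.0798 to 0.967 CPM and 26 reads over the group. SGO1, which guards the cohesion of sister chromatids, had a log2 fold change of 2.21 (SE 0.26). Library 31 was the highest of the 4 in 7 of these 8 genes, all but MND1.

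CLDN11 (ENSG00000013297), a claudin of tight junctions, belongs to another kind of gene. It was at 869 to 1091 CPM with DMSO, at 59.0 to 74.3 CPM with 4OHT and at 264, 347, 524 and 269 CPM with 4OHT+3DA (log2 fold change 2.36, SE 0.16, edgeR adjusted p = 6.6e-09). DDIAS, known for a role in survival after DNA damage, reached the DMSO range, at 14.5, 16.2, 21.4 and 12.0 CPM against 13.9 to 15.7 CPM, and its difference between 4OHT+3DA and DMSO was 0.11 (edgeR adjusted p = 0.62).

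Genes of DNA replication also rose. Of 40 tested members 34 rose and none fell, with a median of 0.80, after a median 4OHT change of −1.78. MCM6 (ENSG00000076003) was at 11.8 to 13.2 CPM with 4OHT and at 25.4, 22.3, 16.3 and 18.4 CPM with 4OHT+3DA (log2 fold change 0.74, SE 0.12, edgeR adjusted p = 0.00025). It was picked for its promoter with its values known. CDC6, which loads the helicase onto origins, was at 4.84 to 7.81 CPM and at 22.9, 19, 21 and 22.9 CPM (1.65, SE 0.13), and MCM10 had a log2 fold change of 1.75. Library 31 was not the highest for MCM6 or CDC6.

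**Figure D2:**
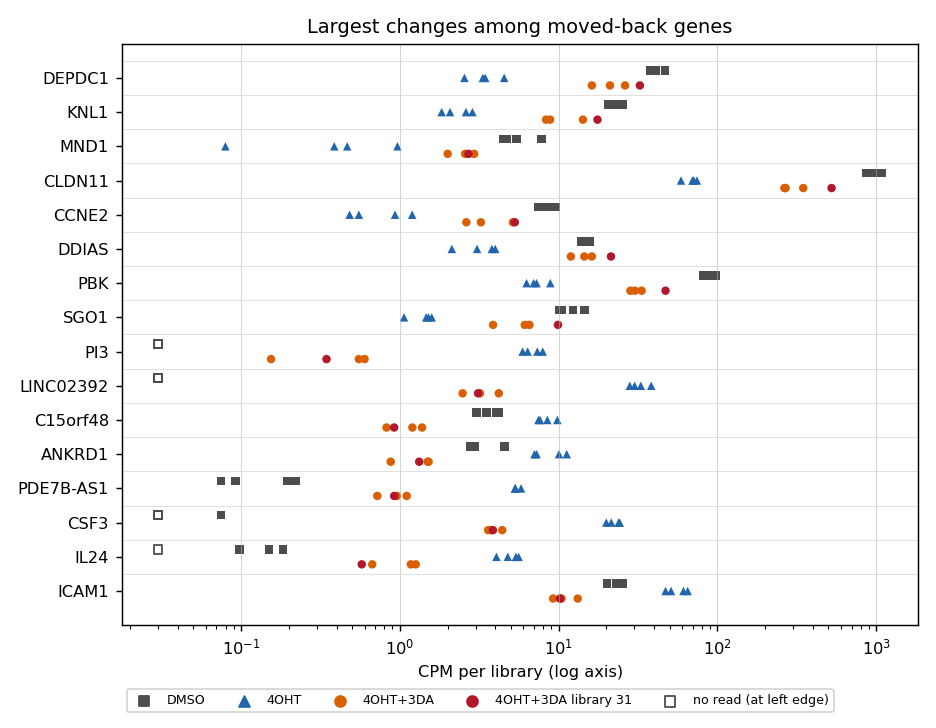
Each point is the CPM of 1 library (log axis) for the 8 largest rises and the 8 largest falls among moved-back genes, by the rule for named genes. DMSO is drawn as squares, 4OHT as triangles, 4OHT+3DA as circles and library 31 in dark red. Open symbols at the left edge are libraries with no read. The rule required no overlap between 4OHT+3DA and 4OHT libraries. For C15orf48, ANKRD1 and ICAM1 the 4OHT+3DA libraries lie below the DMSO libraries too.

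Condensins and proteins of the nuclear lamina, which shape chromatin, were 14 higher and none lower of 20 tested, with a median of 0.73. LMNB1 (ENSG00000113368), lamin B1, whose loss is a known sign of senescence, stood at 38.1 to 40 CPM with DMSO and 2.23 to 3.11 CPM with 4OHT. With 4OHT+3DA it was at 9.43, 7.79, 9.80 and 7.25 CPM, above all 4OHT libraries and still far below DMSO (log2 fold change 1.67, SE 0.14, edgeR adjusted p = 9.7e-08, and −2.19 against DMSO). The condensin gene NCAPH had a log2 fold change of 1.99 and SMC4 of 1.49.

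The CDK inhibitors did not move as a block. CDKN1A (ENSG00000124762), which encodes p21, was at 2595 to 2772 CPM with 4OHT and at 1612, 1567, 1392 and 1851 CPM with 4OHT+3DA (log2 fold change −0.74, SE 0.07, edgeR adjusted p = 2.6e-07), above its 988 to 1038 CPM with DMSO. CDKN2A, which encodes p16 and ARF, was at 64.6 to 81.0 CPM and at 48.2, 50.2, 42.7 and 52.4 CPM (−0.58, SE 0.09). CDKN2B, which encodes p15, stood at 164 to 195 CPM with 4OHT and at 154, 179, 225 and 179 CPM with 4OHT+3DA, and the groups overlapped (0.04, SE 0.09, edgeR adjusted p = 0.79). Of the 8 tested members 2 fell, and CDKN3, a phosphatase gene expressed in dividing cells, rose by 1.47. The called share of the list was 37.5%, against 26.9% of all tested genes.

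Secreted inflammatory factors were one group among the moved-back genes that were lower. Of 24 tested SASP cytokines and chemokines 13 fell and 4 rose, with a median of −0.53, after a median 4OHT change of 4.13. The median that remained against DMSO was 3.24. CSF3 (ENSG00000108342), the growth factor of granulocytes, was at 20 to 24.3 CPM with 4OHT and at 3.60, 3.77, 3.86 and 4.42 CPM with 4OHT+3DA (log2 fold change −2.52, SE 0.15, edgeR adjusted p = 8.1e-10). IL1B (ENSG00000125538), a cytokine that amplifies the SASP, was at 123 to 155 CPM and at 35.5, 29.8, 30.9 and 33.5 CPM (−2.11, SE 0.10), with at most 0.587 CPM in any DMSO library. The 4 libraries with 3DA were close to each other for both genes and far below all 4OHT libraries.

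CCL20 (ENSG00000115009), with its promoter shown above, had no read with DMSO and went from 5.34 to 7.60 CPM with 4OHT to 1.32, 1.5, 1.21 and 1.17 CPM (log2 fold change −2.33, SE 0.22). IL24 fell by 2.44, IL6 by 1.48, IL1A by 1.19 and CXCL8 by 0.26 on the log2 scale. IL6, IL1A and CXCL8 were picked with their values known. CXCL1, CXCL2 and CXCL3 are near-identical, so their reads may be split between them.

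Cytokines that rose are named here with their values known. CXCL12 (ENSG00000107562), a chemokine that 4OHT had lowered, moved back from 1.45 to 2.95 CPM to 6.66, 6.5, 7.15 and 7.53 CPM (log2 fold change 1.8, SE 0.19), against 17 to 20.9 CPM with DMSO. CXCL6 moved on, from 0.276 to 1.04 CPM with 4OHT to 1.56, 1.86, 4.09 and 2.14 CPM (1.90, SE 0.48), and was not called without libraries 30 and 31 (1.52, edgeR adjusted p = 0.068). The other genes of the list that rose were CXCL3 and IL33 (0.81), and IL33 was not called after the GC correction (0.50, edgeR adjusted p = 0.18) or without libraries 30 and 31 (0.91, edgeR adjusted p = 0.054).

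By the rule for named genes, the 8 largest falls among moved-back genes were PI3, LINC02392, C15orf48, ANKRD1, PDE7B-AS1, CSF3, IL24 and ICAM1. PI3 (ENSG00000124102), elafin, an inhibitor of elastase, had no read with DMSO, 5.94 to 7.95 CPM with 4OHT and 0.600, 0.155, 0.346 and 0.553 CPM with 4OHT+3DA (log2 fold change −4.07, SE 0.32, edgeR adjusted p = 1.3e-07). The non-coding LINC02392 likewise had no read with DMSO and went from 28.1 to 38.3 CPM to 4.20, 3.20, 3.11 and 2.49 CPM (−3.30, SE 0.16). PDE7B-AS1 is antisense to a coding gene, and without a stated strand setting its reads cannot be told apart from those of its partner.

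For ICAM1, C15orf48 and ANKRD1 the fall went past the DMSO level. ICAM1 (ENSG00000090339), the adhesion molecule that leukocytes bind, was at 20.2 to 25.4 CPM with DMSO, 47.2 to 65.0 CPM with 4OHT and 10.4, 9.24, 10.2 and 13.2 CPM with 4OHT+3DA (log2 fold change −2.39, SE 0.13, edgeR adjusted p = 2.8e-10, and −1.11 against DMSO). C15orf48, an inflammation-linked mitochondrial protein, stood at 3.05 to 4.20, 7.47 to 9.82 and then 1.20, 0.826, 0.922 and 1.38 CPM. ANKRD1 had a log2 fold change of −2.77 against 4OHT and −1.36 against DMSO. No 4OHT+3DA library overlapped DMSO in any of the 3 genes. None overlapped 4OHT either, which the rule for named genes required.

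How far the moved-back genes returned was measured as the share of the 4OHT change that was removed, on the log2 scale. The median was 67.2% for the 933 genes that rose and 62.9% for the 902 that fell, against 21.7% over all tested genes. The class rule asks for opposite changes, so a share above 0 was fixed by the choice of genes, and the 4OHT libraries enter both changes. Among those that rose, 462 were not called against DMSO, 444 were called on the side of 4OHT and 27 were called past DMSO. Among those that fell these counts were 429, 433 and 40. A gene not called against DMSO is not shown to have returned to the DMSO level. The 2 groups of genes had median log2 fold changes of 0.65 and −0.45, and 248 and 132 of them differed by over 2-fold.

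Lysosomal genes fell with 3DA by small amounts. Of 30 tested members 22 fell and 2 rose, with a median of −0.33, and 19 were lower without libraries 30 and 31. CTSB, a cathepsin, went from 3892 to 4046 CPM with 4OHT to 2356, 2296, 2060 and 2640 CPM (log2 fold change −0.77, SE 0.06), above 1512 to 1596 CPM with DMSO. CTSS, another cathepsin, went from 11.4 to 12.2 CPM to 4.14, 4.18, 2.71 and 6.98 CPM (−1.39, SE 0.20). The cholesterol transporter NPC1 had −0.68, and 5 of the members that fell were 3DA-only genes.

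Metallothioneins and targets of NRF2, the regulator of the answer to oxidants, were 8 lower and none higher of 15 tested, with a median of −0.36, and the count was the same without libraries 30 and 31. FTL, the ferritin light chain that stores iron, was at 15032 to 17510 CPM with 4OHT and at 9912, 8418, 8170 and 9064 CPM with 4OHT+3DA (log2 fold change −0.87, SE 0.07), each below the lowest DMSO library at 10014 CPM. NQO1, a quinone reductase, was at 983 to 1150 CPM and at 665, 571, 596 and 605 CPM (−0.81, SE 0.07). HMOX1 had −0.79. Genes of the amino acid response run by ATF4 were 12 lower and none higher of 24, with a median of −0.24, led by ATF3 (−0.92) and DDIT3 (−0.91). ATF3 was not called without libraries 30 and 31 (−0.64, edgeR adjusted p = 0.11), and DDIT3 was (−0.86).

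**Figure D3:**
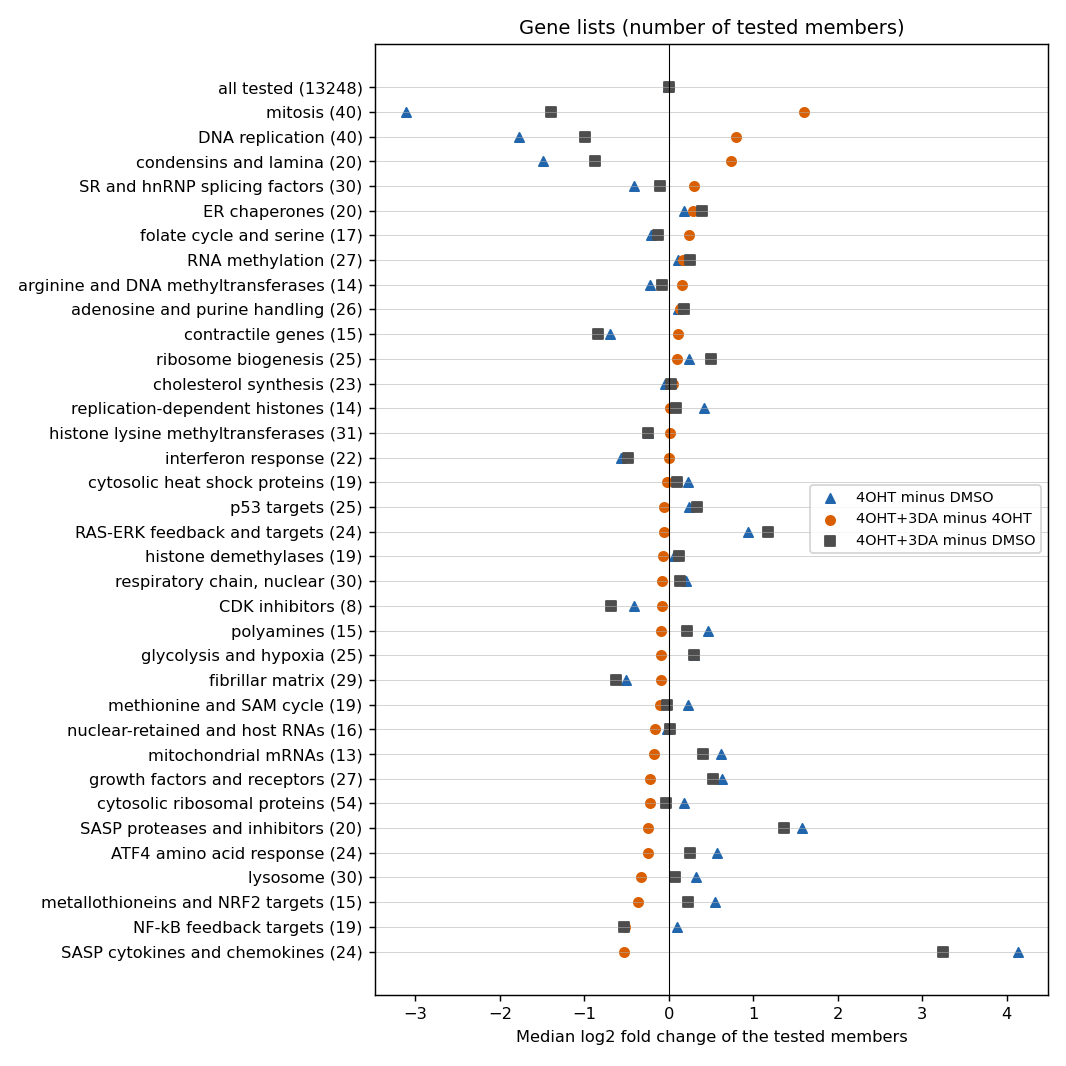
For each gene list the median log2 fold change of its tested members is shown for 4OHT minus DMSO (triangles), 4OHT+3DA minus 4OHT (circles) and 4OHT+3DA minus DMSO (squares), with the number of members in brackets and all tested genes on top. Mitosis, at −3.11, 1.60 and −1.40, and the SASP cytokines, at 4.13, −0.53 and 3.24, lie at the ends of the order by the 3DA difference among the lists drawn. Marker lists of cell types are not drawn.

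The 3DA-only genes moved in cells where 4OHT had left their level near that of DMSO. Their changes were small, with a median log2 fold change of 0.43 for the 581 that rose and −0.37 for the 335 that fell. At least a 1.5-fold difference was reached by 108 and 61 of them, and over 2-fold by 6 and 13. KCTD12 (ENSG00000178695), an auxiliary subunit of GABA-B receptors, had the largest rise by the rule for named genes. It stood at 2.84 to 7.41 CPM with DMSO, 5.19 to 7.19 CPM with 4OHT and 24.9, 28.3, 39.1 and 22.2 CPM with 4OHT+3DA (log2 fold change 2.19, SE 0.21, edgeR adjusted p = 4.6e-07). The DMSO and 4OHT libraries overlapped and every library with 3DA lay above them, which for 4OHT the rule required.

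GJA1 (ENSG00000152661), connexin 43 of gap junctions, was at 86.1 to 99.9 CPM with DMSO, 94.6 to 114 CPM with 4OHT and 211, 266, 409 and 218 CPM with 4OHT+3DA (log2 fold change 1.39, SE 0.15, and 1.03 without libraries 30 and 31). TFAM, which packs and transcribes mitochondrial DNA, was at 30 to 35.2, 26.3 to 32.6 and 46.6, 57.4, 90.0 and 47.5 CPM (1.06, SE 0.16, and 0.70 without those libraries). PDZD8, a tether between the ER and other organelles, was at 13.2 to 19 CPM with 4OHT and 26.8, 34.1, 61.5 and 26.4 CPM with 4OHT+3DA (0.69 without libraries 30 and 31), and ETFRF1, which regulates an electron transfer flavoprotein, 0.99 (0.48 without them). The other named rises were FAM117B (1.06), MORN2 (0.99) and FBXO45 (0.94), and all 8 were called without libraries 30 and 31. In 7 of these 8 genes library 31 was the highest of the 4.

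PDGFRA (ENSG00000134853), a growth factor receptor of fibroblasts, was a 3DA-only gene that rose. It was at 85.5 to 103 CPM with DMSO, 82.2 to 96.0 CPM with 4OHT and 157, 160, 175 and 160 CPM with 4OHT+3DA (log2 fold change 0.90, SE 0.08, edgeR adjusted p = 1.1e-07, and 0.86 without libraries 30 and 31). The groups with and without 3DA did not overlap, and library 31 was the highest of the 4.

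The largest 3DA-only fall by the rule for named genes was that of HDAC9 (ENSG00000048052), a class IIa histone deacetylase. It stood at 16.8 to 20.8 CPM with DMSO, 20.6 to 24.1 CPM with 4OHT and 6.06, 8.93, 7.44 and 6.98 CPM with 4OHT+3DA (log2 fold change −1.56, SE 0.13, edgeR adjusted p = 4.0e-08). KLHL3, an adaptor of a ubiquitin ligase, had −1.49 (SE 0.21), and PLPP2, a lipid phosphatase, −1.34 (SE 0.12). ISYNA1, which makes inositol phosphate from glucose phosphate, was at 13.4 to 15.2, 14.1 to 16.8 and 7.2, 7.53, 5.65 and 6.63 CPM (−1.17, SE 0.12). MYPN, a protein of the sarcomere, was at 8.94 to 12.3 CPM with 4OHT and 5.70, 3.46, 4.32 and 5.87 CPM with 4OHT+3DA, and SUSD1, HSBP1L1 and SLC16A14 had −1.12, −1.07 and −1.07. In each of these 8 genes all 4 libraries with 3DA lay below all 4OHT libraries, which the rule for named genes required. All 8 were called without libraries 30 and 31.

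CDA (ENSG00000158825), cytidine deaminase, was picked with its values known. It went from 3.11 to 5.19 CPM with 4OHT to 0.660, 0.671, 0.749 and 0.83 CPM with 4OHT+3DA (log2 fold change −2.43, SE 0.24, edgeR adjusted p = 5.4e-07), against 4.90 to 6.38 CPM with DMSO. Its 4OHT difference of −0.43 was not called and its interval reached past 1.5-fold, so it was not resolved.

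**Figure D4:**
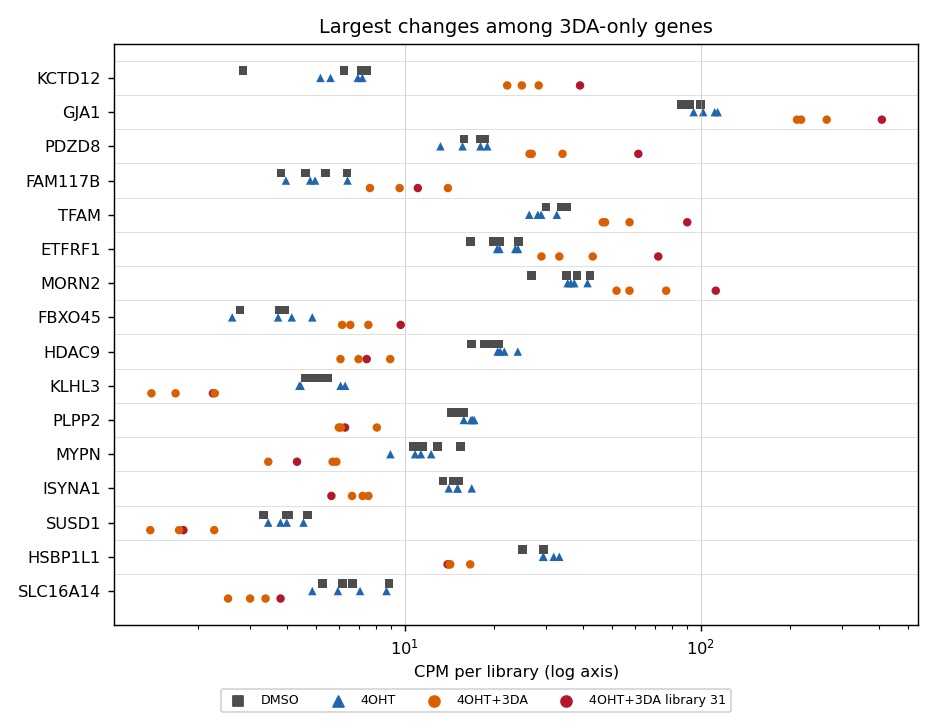
Each point is the CPM of 1 library (log axis) for the 8 largest rises and the 8 largest falls among 3DA-only genes, by the rule for named genes. DMSO is drawn as squares, 4OHT as triangles, 4OHT+3DA as circles and library 31 in dark red. DMSO and 4OHT lie together in each row. Library 31 is the highest of the 4 4OHT+3DA libraries in 7 of the 8 genes that rose, and the lowest in 2 of the 8 that fell.

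The 3DA-only genes that rose had transcripts low in GC. Their median transcript GC content was 40.5% against 47.6% over all tested genes, and 45.4% of them lay under 40% GC against 17.1% of all. The 3DA-only genes that fell had a median of 52.0%, the moved-back genes 42.8% where they rose and 50.5% where they fell, and the moved-on genes 41.3% and 51.2%. Library 31 was the highest of the 4 4OHT+3DA libraries in 440 of the 581 3DA-only genes that rose (75.7%), against 33.5% of all tested genes. This was also seen in the other classes, in 77.1% of the moved-on, 75.3% of the not resolved and 56.3% of the moved-back genes that rose. Library 31 was the lowest in 181 of the 335 3DA-only genes that fell (54.0%), in 51.1% of the moved-on and 51.4% of the moved-back genes that fell, and in 35.7% of all.

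A trend with GC ran through the comparison and differed between libraries with 3DA. In 10 bins of equal size by transcript GC, the median log2 fold change went from 0.30 in the lowest bin (27.8% to 38.3% GC) to −0.09 in the highest (60.9% to 73.5%). In the lowest bin 35.3% of genes were called higher and 3.46% lower, and in the highest bin 5.23% and 14.7%. For single libraries, the median deviation from the 4OHT mean in the lowest bin minus that in the highest was 0.91 in library 31, 0.36 in library 30, 0.15 in library 29 and 0.01 in library 32. In the 4OHT libraries it ran from −0.04 to 0.02, and in DMSO from −0.05 to 0.16. Libraries of the same treatment thus differed by more among themselves than the 4OHT libraries did. The cause of this trend was not tested.

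**Figure D5:**
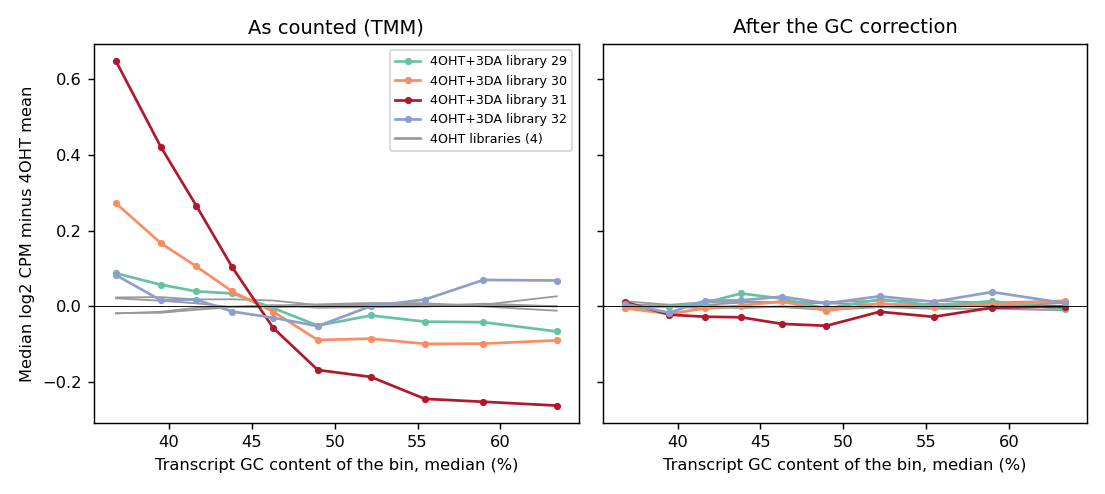
The median deviation of log2 CPM from the 4OHT mean is plotted against the median transcript GC content of 10 bins, for each 4OHT+3DA library in colour and the 4OHT libraries in grey, as counted (left) and after the GC correction (right). Library 31 runs from 0.65 in the lowest bin to −0.26 in the highest, and library 30 from 0.27 to −0.09. After the correction the difference between those bins is 0.01 in library 31.

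The classes differed in how well they held when the trend was removed or when libraries 30 and 31 were left out. With a loess trend over GC taken out of each library, 368 of the 581 3DA-only genes that rose were still called higher (63.3%), and 246 (42.3%) without libraries 30 and 31. For the 335 that fell these counts were 259 (77.3%) and 167 (49.9%). Of the moved-back genes that rose, 802 of 933 (86.0%) were called after the correction and 661 (70.8%) without those libraries, and of those that fell, 774 of 902 (85.8%) and 589 (65.3%). The same sign without libraries 30 and 31 was seen in 580 of the 581 3DA-only genes that rose and in all 335 that fell. Over all 13248 tested genes it was seen in 11301. The libraries that remained had also entered the calls, so a kept sign was largely fixed by the choice of genes. Fewer libraries can also leave fewer calls, but this did not hold for every library. Against 3558 called genes with all libraries, 2821 were called without library 30 alone and 3243 without library 31 alone. Without library 29 alone 3746 were called, and without library 32 alone 3956. Over all genes 2408 were called without libraries 30 and 31 (17.5% of those tested) and 3756 with the GC correction (28.4%). Genes that kept their call in each of these separate fits were 226 3DA-only genes that rose and 162 that fell, and 638 and 581 moved-back genes.

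The classes were also drawn anew under other settings. Without libraries 30 and 31 there were 434 3DA-only genes, 266 higher and 168 lower. Of the 4OHT libraries, leaving out 21 or 22 gave 380 and 382 that rose. Leaving out those libraries also lowered the moved-on genes that rose to 160 and 152.

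Splicing factors and ribosomal proteins were gene groups in which the GC trend or single libraries showed. SR and hnRNP proteins, which choose splice sites, were 17 higher and none lower of 30 tested, with a median of 0.30 and a median transcript GC of 40.6%. They were 13 higher and 1 lower after the GC correction (median 0.14), 9 higher without libraries 30 and 31 (0.18) and 11 higher in a fit of the 8 libraries alone. HNRNPH1 stood at 239 to 283 CPM with 4OHT and at 403, 574, 1054 and 366 CPM with 4OHT+3DA (log2 fold change 1.21, SE 0.22, and 0.57 without libraries 30 and 31). Library 31 was far above the other three. Cytosolic ribosomal proteins were 19 lower and none higher of 54 (35.2% called, against 26.9% of all tested genes), with a median of −0.23. None of them had groups that did not overlap, and none was called without libraries 30 and 31. The count was 4 without 4OHT library 21 or 22 or 4OHT+3DA library 30, 6 without library 32 and 43 without library 29.

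Chaperones of the ER rose with 3DA. Of 20 tested members 12 rose and 2 fell, with a median of 0.29. After the GC correction 12 were higher and the median was 0.19, and without libraries 30 and 31 these were 11 and 0.21. Of the 12, 5 were 3DA-only genes, 5 moved on and 2 moved back. PDIA4 (ENSG00000155660), which forms disulphide bonds, was a 3DA-only gene at 311 to 320 CPM with DMSO, 272 to 298 CPM with 4OHT and 378, 383, 364 and 431 CPM with 4OHT+3DA (log2 fold change 0.42, SE 0.06, edgeR adjusted p = 8.1e-05). SDF2L1 rose by 0.57 and MANF by 0.42, and both moved on. HSP90B1, with its promoter shown above and picked with its values known, moved back by 0.32 (SE 0.07). HSPA5, the main chaperone of the ER, stood at 0.16 and was not called, also picked with its value known. DNAJB9 was called (0.54) but not without libraries 30 and 31 (0.12, edgeR adjusted p = 0.34), nor without 4OHT library 21 (0.51) or 22 (0.55).

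NF-kB feedback targets are genes that NF-kB switches on, some of which restrain it. Of 19 tested members 9 fell and none rose, with a median of −0.52, after a median 4OHT change of 0.10, and 6 were lower without libraries 30 and 31. NFKBIA (ENSG00000100906), with its promoter shown above and picked with its values known, was a 3DA-only gene at 64.7 to 72.9 CPM with DMSO, 70.6 to 75.0 CPM with 4OHT and 37.0, 37.2, 36.8 and 44.6 CPM with 4OHT+3DA (log2 fold change −0.90, SE 0.08, edgeR adjusted p = 1.2e-07). TNFAIP3, the ubiquitin editor A20 that restrains NF-kB, was at 6.07 to 8.84 CPM and at 3.36, 2.58, 2.13 and 2.97 CPM (−1.46, SE 0.21) and was not resolved. BIRC3 moved on, at −1.22, and was not called without 4OHT library 23 (−1.03) or 24 (−1.12). The NF-kB subunit genes NFKB1 (−0.42) and NFKB2 (−0.40) were not called and were picked with their values known.

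Moved-on genes went further in the direction of 4OHT. HAS2 (ENSG00000170961), which makes hyaluronan, was at 74.8 to 89.9 CPM with DMSO, 91.1 to 105 CPM with 4OHT and 279, 282, 303 and 261 CPM with 4OHT+3DA (log2 fold change 1.53, SE 0.08, edgeR adjusted p = 2.1e-10). PRKG2, a kinase that answers to cyclic GMP, was at 0.954 to 1.66, 4.74 to 6.56 and 12.5, 15.2, 13.2 and 11.5 CPM (1.25, SE 0.16), and IQGAP2, a scaffold of the cytoskeleton, had 1.27 (SE 0.22). The cytokine gene IL32 fell from 14.4 to 15.4 CPM with DMSO to 3.00 to 3.8 CPM with 4OHT and then to 0.780, 0.877, 1.10 and 0.83 CPM (−1.85, SE 0.19). MASP1, a protease of complement, and WFDC21P, a pseudogene, had −1.69 and −2.20. In all 6 genes the libraries with 3DA did not overlap those with 4OHT, which the rule for named genes required.

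The growth factor HGF, made by fibroblasts for epithelial cells, moved on from 168 to 210 CPM to 315, 371, 431 and 336 CPM (log2 fold change 0.93, SE 0.09), while GDF15 moved back from 799 to 860 CPM to 495, 465, 407 and 507 CPM (−0.83, SE 0.07). The matrix genes LUM and COL1A2 moved on downwards (−0.93 and −0.54) and POSTN upwards (0.64). Fibrillar matrix genes as a list were 6 higher and 7 lower of 29, a called share of 44.8%, against 26.9% of all tested genes. Their median was −0.10, and −0.05 after the GC correction or without libraries 30 and 31.

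Of 19 tested genes of the methionine and SAM cycle 2 rose and 2 fell, a called share of 21.1%, near the 26.9% of all tested genes. NNMT (ENSG00000166741), which spends SAM to methylate nicotinamide, was at 15.3 to 18.6 CPM with DMSO, 23.2 to 24.2 CPM with 4OHT and 11.2, 9.08, 10.4 and 10.6 CPM with 4OHT+3DA (log2 fold change −1.19, SE 0.11, edgeR adjusted p = 1.2e-07), below both other groups. MTAP, which salvages methylthioadenosine, rose from 76.5 to 92.5 CPM to 123, 143, 203 and 126 CPM (0.82, SE 0.12). MAT2B, a regulatory subunit of the SAM synthetase, had 0.62, and AHCYL1, a relative of AHCY, −0.24, which was not called after the GC correction (−0.17, edgeR adjusted p = 0.078) or without libraries 30 and 31 (−0.19, edgeR adjusted p = 0.14). Its call also ended without any single 4OHT library or any single 4OHT+3DA library except 32 (−0.25 to −0.20). ADK, adenosine kinase, and SLC29A1, a nucleoside transporter, had −0.01 and 0.26 (edgeR adjusted p = 0.97 and 0.10), and SLC29A1 was called after the GC correction (0.34), without library 31 (0.33) and without libraries 30 and 31 (0.37).

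Enzymes that make methylated RNA and chromatin use the same SAM, and their called shares were near the 26.9% of all tested genes or below it, at 29.6% for RNA methylation, 22.6% for histone lysine methyltransferases and 14.3% for the arginine and DNA list. Over all tested genes 14.4% were called higher and 4.39% were 3DA-only rises. Of 27 tested genes of RNA methylation 7 rose, 6 of them as 3DA-only genes, and 1 fell. Without libraries 30 and 31, 3 were higher. METTL5, a methyltransferase of ribosomal RNA, had 0.52 (0.31 without those libraries), and METTL14, a subunit of the enzyme that methylates adenosine in mRNA, 0.43 and was then not called (0.26, edgeR adjusted p = 0.14). Of 31 histone lysine methyltransferases 5 rose and 2 fell. SUV39H2 had 0.97 and EZH2 0.63, both moved back, while SMYD3 went from 79.6 to 86.5 CPM with 4OHT to 51.1, 47.5, 44.8 and 49.6 CPM (−0.77, SE 0.08), against 33.1 to 38.6 CPM with DMSO. Of 14 genes for arginine and DNA methyltransferases and the enzymes that remove DNA methylation, 2 rose, PRMT6 (0.54) and PRMT3 (0.40), and PRMT3 was not called after the GC correction (0.07, edgeR adjusted p = 0.64) or without 4OHT library 22 (0.33).

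Purine genes rose in 9 and fell in 3 of 26 tested members, a called share of 46.2%, against 26.9% of all tested genes. PFAS, an enzyme of purine synthesis, moved back from 24.3 to 25.4 CPM to 41.1, 44.2, 33.5 and 42.8 CPM (log2 fold change 0.69, SE 0.09), next to 37.2 to 41.3 CPM with DMSO. HPRT1, which recovers purine bases, was a 3DA-only gene (0.58, SE 0.12), with library 31 the highest.

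Markers of cell types were read beside these results. The 10 fibroblast markers were all tested, and their summed level was 10592 to 11559 CPM with DMSO, 5709 to 6319 CPM with 4OHT and 5025 to 5251 CPM with 4OHT+3DA, with 1 higher (PDGFRA) and 3 lower with 3DA. Epithelial markers (6 of 12 tested, 1 lower) summed to 59.1 to 67.8 CPM with 4OHT and 44.7 to 57.2 CPM with 4OHT+3DA. Endothelial markers (5 of 9 tested, 2 lower) summed to 40.9 to 44.7 and 22.8 to 28.3 CPM, with no read for PECAM1 and CDH5 in any group. Immune markers (3 of 10 tested, none called) summed to 6.47 to 9.05 and 8.10 to 9.88 CPM, with no read for CD3E, ITGAM and TYROBP. The part of these levels in the results was not tested. In bulk samples, fewer cells of a type and less RNA per cell cannot be told apart, which holds for a mixture of dividing and arrested cells as well.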

How the data were processed

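RNA was measured in 12 libraries, 4 per group. Full-length cDNA was made by Smart-Seq2 and turned into libraries with Nextera XT, per the labels' protocols. The authors deposited a table of raw counts for each gene, which are whole and not normalised. The submitters' processing notes list CASAVA 1.8.2, TopHat2 2.0.11, featureCounts 1.18.0 and the builds hg19 and GRCh37. How reads were filtered, whether strand was used and what was done with reads of several matches is not given in the sources used here. Reads have no molecular identifiers, and depth limits what low genes can show. Antisense, overlapping and near-identical genes are uncertain.

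The test was edgeR 4.0.16 (R 4.3.3), in its quasi-likelihood form, on 12 libraries and 3 groups fitted together with 9 residual degrees of freedom. Before it, filterByExpr removed low genes (minimum count 10) and TMM set the scale. Adjustment was by Benjamini-Hochberg over all genes of a comparison, with a threshold of 0.05. SE was taken as the size of a log2 fold change over the square root of its F. Symbols were found for 50127 of 62069 identifiers, and 0.488% of reads fell on the rest, which stayed in the test. The 39 gene lists held 913 entries, of which 897 were matched. GC content was read from a gene's longest transcript in GENCODE release 29 and was known for 12989 genes (98.0%). For the GC correction, each gene's log2 CPM was taken as a deviation from its mean over the libraries of the fit. A loess curve (span 0.4) of these deviations against GC was subtracted in each library through an offset. Promoters came from RefSeq.

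Other settings were DESeq2 1.42.0, limma-voom (limma 3.58.1), RLE factors, library totals, all genes unfiltered, genes with mean CPM of 1 or more, a fit of the 8 libraries alone, an adjusted p under 0.01, a 1.5-fold minimum, an interval of 2-fold or none for 3DA-only genes, the GC correction alone or without library 31, libraries 30 and 31 left out, and every library dropped once. The GC correction without both libraries 30 and 31 was added after seeing the data. The members, lists and tests were chosen with earlier results of these data known. Genes were named by rule: fixed genes, the largest changes by class, and up to 4 called members of each list. By class these were, per direction, the 8 largest of moved-back and 3DA-only genes and the 3 largest of moved-on genes. Such a gene had a symbol, no overlap between 4OHT+3DA and 4OHT libraries, and an average log2 CPM over 1. It also had to keep its call and direction with the GC correction. Others are said to be picked with their values known. The edgeR fit, the classes and the GC correction were tested on simulated counts, and the other steps were not. The simulated GC trend was put in a single library, whereas libraries 30 and 31 both had one. Plots were drawn with Python 3.11.15 and matplotlib 3.10.9.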

Additional observations from a re-analysis of the deposited data

Results flagged for a closer look

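Among the 288 groups of 4 libraries behind the genes named above, 17 held 1 library that stood apart from the other 3, where the gap to the nearest library, as a share of the group's whole range, was over the limit of Dixon's test. Chance flags about 1 in 20 groups. In 4OHT+3DA this share of the range was 0.844 for PDGFRA in library 31 (175 CPM, against 157 to 160 CPM), 0.958 for NFKBIA in library 32 (44.6 against 36.8 to 37.2 CPM), and 0.856 for PLPP2 and 0.89 for HSBP1L1 in library 29. In 4OHT it was 0.879 for CDK1 and 0.87 for PDIA4 in library 21, both low there, 0.943 for PDE7B-AS1 in library 21, 0.857 for IL32 in library 23 and 0.937 for MAT2B in library 24, each high there. In DMSO it was 0.906 for ANKRD1, 1.0 for CSF3, 0.923 for AHCYL1 and 0.937 for CDA in library 18, 0.97 for HSBP1L1, 0.921 for METTL5 and 0.835 for HNRNPH1 in library 17, and 0.855 for FBXO45 in library 19. For CSF3 the library was the only one with a read.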

How the results depend on the processing

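No paired analysis was possible because the groups share no replicate numbers. Of 181 named genes, none was counted as reversed in any of 24 settings. This count leaves out sign changes near 0 of genes that were not called, such as those of AHCY and CDKN2B. AHCY went from −0.05 to 0.03 with the GC correction and to 0.09 without libraries 30 and 31. CDKN2B went from 0.04 to −0.10 without those libraries. Among the named genes the GC correction ended 11 calls and leaving out libraries 30 and 31 ended 35. Genes named as the largest of their class had to keep their call with the GC correction, so for them this was fixed by the choice. The counts of called genes and of moved-back, 3DA-only and moved-on genes were within 1.5 times of those reported with DESeq2, limma-voom, RLE factors, unfiltered genes, genes with mean CPM of 1 or more and the GC correction. A fit of the 8 libraries alone gives no classes, and its counts of called genes were within the same limit. It called fewer genes, 2851 (1495 higher, 1356 lower), against 3558 (1909 and 1649) in the fit that also held the DMSO libraries.

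An adjusted p under 0.01 left 1944 called genes (1044 higher, 900 lower), 1078 moved-back (574 and 504), 474 3DA-only (282 and 192) and 217 moved-on (91 and 126), and a 1.5-fold minimum left 1399 called and, applied in both comparisons, 756 moved-back. Library totals gave 1466 moved-back genes that rose and 554 that fell, with a median over all genes of 0.065. Without libraries 30 and 31 there were 434 3DA-only genes (266 and 168), and with the GC correction as well, an alternative chosen after seeing the data, 463 (300 and 163). The causes were not tested.

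Leaving out 1 library at a time gave 380 to 678 3DA-only genes that rose, 343 to 644 moved-on genes and 152 to 330 that rose among these. The lowest came without 4OHT library 21 (380 and 160) or 22 (382, 343 and 152).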
